A study of Mus musculus with 4 samples.

Results

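The genes described here encode the receptors and signalling proteins through which medullary thymic epithelium matures. They are Tnfrsf11a, Tnfrsf11b, Cd40, Ltbr, Traf3, Traf6, Map3k14, Nfkb1, Nfkb2 and Relb, chosen by name for their part in medullary maturation, with no measured value in the rule. Each of the 10 symbols matched 1 row of the deposited table, which holds 54532 genes. All 10 genes had at least 50 reads in every pair of libraries compared. Bulk RNA was sequenced from 2 thymic epithelial populations of C57BL/6 mice, mTEC (medullary, Ly51− UEA1+) and cTEC (cortical, Ly51+ UEA1−). Each population was taken from mice with an SCD1 knockout and from their littermates, which carry the genotype label WT and serve as controls. SCD1 is the stearoyl-CoA desaturase that converts stearic to oleic acid. The labels do not state the allele, whether the loss was confined to a tissue, or the age, sex and number of mice behind a library.

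RANK (the product of Tnfrsf11a), CD40 and the lymphotoxin beta receptor are members of the TNF receptor superfamily on medullary epithelial cells. Their ligands come mainly from developing thymocytes and innate lymphoid cells. Without a signal, a complex that contains TRAF3 keeps the NF-kB inducing kinase NIK (Map3k14) unstable. Ligation of the receptors lets NIK accumulate, p100 (Nfkb2) is processed to p52, and p52 enters the nucleus with RelB. This noncanonical branch runs beside the canonical branch, in which TRAF6 and the IkB kinases release dimers of p50 (Nfkb1) and RelA. Loss of RANK, NIK, TRAF6 or RelB is known to impair the medulla and Aire expression in mice, and CD40 acts together with RANK.

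Each combination of population and genotype was 1 library of 15740383 to 18151725 assigned reads. No difference therefore has a replicate check, no test was run, and the 95% intervals cover counting error only. Scd1 itself had 1310 control and 278 knockout reads in mTEC, and 325 and 73 in cTEC. Most mTEC and cTEC markers followed the population labels. Of 9 mTEC markers, 8 were higher in mTEC in each genotype, and all 10 cTEC markers were lower in mTEC. The mTEC marker Trp63 went the other way, with 4671 and 4205 reads in control and knockout mTEC against 8351 and 9696 in cTEC. Aire had 21598 and 22186 reads in the mTEC libraries against 575 and 590 in cTEC, and the cortical protease gene Psmb11 had 706 and 1026 against 8462 and 12201. In bulk samples of this kind, fewer cells of a type and less RNA per cell cannot be told apart.

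Of the 4 receptor genes, 3 were far higher in mTEC than in cTEC and the fourth was lower. Tnfrsf11a (ENSMUSG00000026321, mm10 chromosome 1, 105780718 to 105847981, plus strand) had 2113 control and 2248 knockout reads in mTEC, and 268 control and 227 knockout reads in cTEC. Scaled to library size by trimmed mean of M-values (TMM), these are 124, 128, 17.5 and 12.9 CPM, a read count relative to the scaled library total. Both mTEC libraries lay above both cTEC libraries, 7.06-fold in the control pair (log2 ratio 2.82, 95% interval 2.64 to 3.01) and 9.86-fold in the knockout pair (3.30, 3.11 to 3.51). Cd40 (ENSMUSG00000017652, chromosome 2, 165055627 to 165072948, plus strand) encodes the receptor for CD40 ligand on helper and maturing T cells. Its reads numbered 2397 and 2694 in control and knockout mTEC, and 447 and 567 in control and knockout cTEC. The mTEC level was 4.80-fold the cTEC level in the control pair (2.26, 2.12 to 2.41) and 4.74-fold in the knockout pair (2.24, 2.11 to 2.38).

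Tnfrsf11b (ENSMUSG00000063727, chromosome 15, 54250619 to 54278484, minus strand) encodes osteoprotegerin, the secreted decoy receptor that binds RANK ligand and keeps it from RANK. It had the largest population ratio of the 10 genes in both genotypes. The counts were 1561 and 1567 reads in control and knockout mTEC against 107 and 103 in cTEC. In the control pair it was 13.0-fold higher in mTEC (3.70, 3.43 to 4.01) and in the knockout pair 15.1-fold (3.92, 3.64 to 4.23). Receptor and decoy were thus both medullary, and the decoy more so. The ratio of Tnfrsf11a to Tnfrsf11b reads, which no scaling touches, was 1.35 in control mTEC and 1.43 in knockout mTEC against 2.50 and 2.20 in cTEC. Counting error of that shift leaves the mTEC ratio at 0.540 times the cTEC ratio in controls (0.428 to 0.683) and 0.651 times in knockouts (0.511 to 0.829).

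Ltbr (ENSMUSG00000030339, chromosome 6, 125306571 to 125313885, minus strand), the receptor for lymphotoxin alpha-beta heterotrimers and LIGHT, lay the other way. It had 1338 and 1485 reads in control and knockout mTEC and 2352 and 2856 in cTEC. The log2 ratio of mTEC over cTEC was −0.97 in the control pair (−1.07 to −0.87) and −0.95 in the knockout pair (−1.04 to −0.86), just short of 2-fold lower. Against Ltbr, Tnfrsf11a reads shifted 13.9-fold between cTEC and mTEC in controls (12.0 to 16.0) and 19.0-fold in knockouts (16.4 to 22.1). Cd40 against Ltbr shifted 9.43-fold (8.35 to 10.6) and 9.14-fold (8.18 to 10.2).

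The adaptors and the kinase differed less between the populations than Tnfrsf11a, Cd40 and Tnfrsf11b, and Traf6 differed most among them. Traf3 (ENSMUSG00000021277, chromosome 12, 111166370 to 111267153, plus strand), the adaptor that restrains NIK, had 2234 and 2160 reads in mTEC and 2172 and 2449 in cTEC. Its scaled level ran from 123 CPM in knockout mTEC to 142 in control cTEC, and mTEC was 1.08-fold lower in controls (−0.12, −0.20 to −0.03) and 1.14-fold lower in knockouts (−0.18, −0.27 to −0.10). Map3k14 (ENSMUSG00000020941, chromosome 11, 103219762 to 103267472, minus strand), the NIK gene, had 1656 and 1710 reads in mTEC and 1176 and 1369 in cTEC. It was 1.26-fold higher in mTEC of controls (0.34, 0.23 to 0.45) and 1.25-fold higher in mTEC of knockouts (0.32, 0.21 to 0.42). Traf6 (ENSMUSG00000027164, chromosome 2, 101678429 to 101701669, plus strand), the ubiquitin ligase that RANK and CD40 share with Toll-like receptors, had 1671 and 1835 reads in mTEC and 807 and 1113 in cTEC. Its mTEC level was 1.86-fold the cTEC level in controls (0.89, 0.77 to 1.02) and 1.64-fold in knockouts (0.72, 0.61 to 0.83). Reads of the kinase gene relative to its restraining adaptor, Map3k14 over Traf3, were 1.37 times as high in mTEC as in cTEC in controls (1.24 to 1.51) and 1.42 times in knockouts (1.29 to 1.55).

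**Figure D1:**
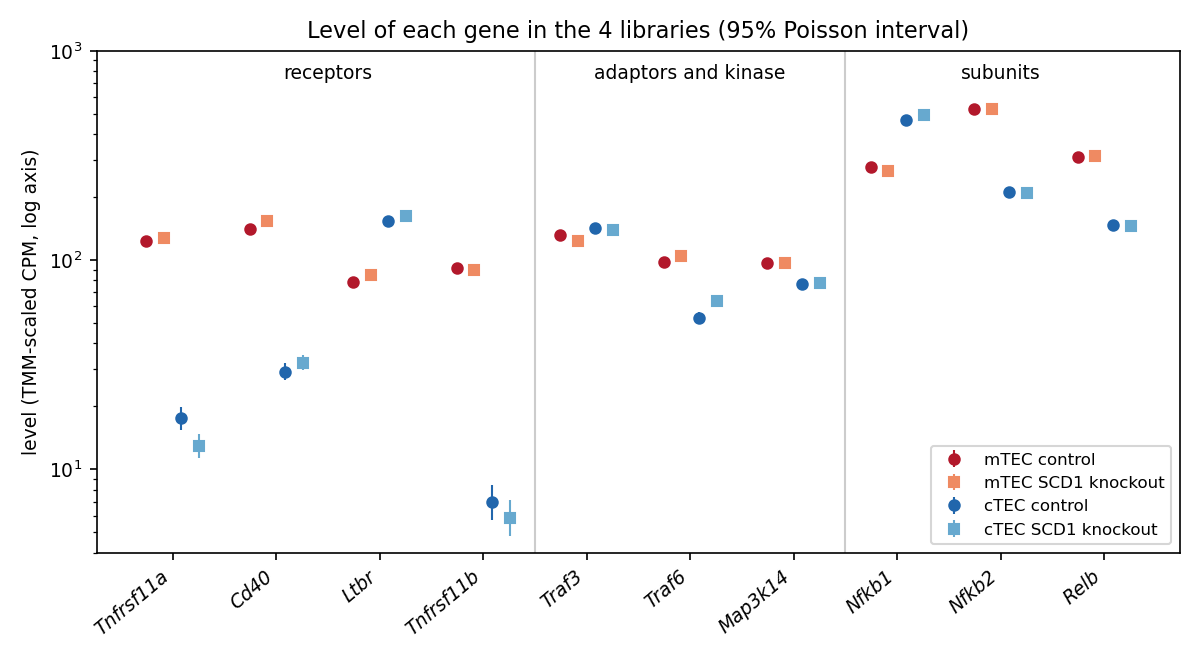
Level of each of the 10 genes in each library, in TMM-scaled CPM on a log axis, with 95% Poisson intervals that are smaller than most points; circles are control and squares SCD1 knockout libraries, red shades mTEC and blue shades cTEC. The 2 libraries of a population lie close together for nearly every gene, while Tnfrsf11a, Cd40 and Tnfrsf11b separate the populations most and Ltbr and Nfkb1 are the genes clearly higher in cTEC.

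Among the transcription factor subunits, the noncanonical pair was higher in mTEC and the canonical precursor was higher in cTEC. Nfkb2 (ENSMUSG00000025225, chromosome 19, 46304737 to 46312090, plus strand) had 8992 control and 9247 knockout reads in mTEC, and 3234 and 3671 in cTEC. It was 2.49-fold higher in mTEC of controls (1.32, 1.26 to 1.38) and 2.51-fold higher in mTEC of knockouts (1.33, 1.27 to 1.39). Relb (ENSMUSG00000002983, chromosome 7, 19606217 to 19629438, minus strand) had 5278 and 5531 reads in mTEC and 2256 and 2548 in cTEC. It was 2.10-fold higher in controls (1.07, 0.998 to 1.14) and 2.17-fold higher in knockouts (1.11, 1.05 to 1.18), just past 2-fold. Nfkb1 (ENSMUSG00000028163, chromosome 3, 135584655 to 135691547, minus strand) had 4764 and 4664 reads in mTEC and 7170 and 8655 in cTEC. It was 1.68-fold lower in mTEC of controls (−0.75, −0.80 to −0.69) and 1.86-fold lower in mTEC of knockouts (−0.90, −0.95 to −0.84).

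The balance between the subunits, read within each library by ratios picked after the values were seen, differed between the populations. There were 1.89 and 1.98 Nfkb2 reads per Nfkb1 read in control and knockout mTEC, and 0.451 and 0.424 in cTEC. The shift was 4.18-fold in controls (3.96 to 4.42) and 4.67-fold in knockouts (4.44 to 4.93). Relb over Nfkb1 shifted 3.52-fold (3.31 to 3.74) and 4.03-fold (3.80 to 4.27). Against Rela, the transactivating subunit of the canonical dimer with 3205 to 3390 reads in every library, Relb shifted 2.27-fold (2.12 to 2.44) and 2.30-fold (2.15 to 2.46). Relb and Nfkb2 stayed closer to each other, with Relb over Nfkb2 in mTEC at 0.841 times its cTEC value in controls (0.790 to 0.897) and 0.862 times in knockouts (0.811 to 0.916).

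The Nfkb2 locus has neighbours that overlap it. In GENCODE release M21 the gene spans 46304320 to 46312385, beyond the deposited positions (46304737 to 46312090) at both ends. The minus-strand gene Psd overlaps Nfkb2 by 4 bases in the deposited positions and by 299 bases of the longest Nfkb2 transcript in GENCODE release M21, where a bidirectional promoter RNA (AC114539.1) shares another 502 bases. Psd had 4525 and 4544 reads in mTEC and 2370 and 2326 in cTEC, also higher in mTEC (log2 ratio 0.78 in controls and 0.96 in knockouts). The sources used here do not state whether the authors' counting used strand, and the part of these neighbours in the Nfkb2 counts was not tested. The other 9 genes had at most 3.66% of their longest transcript in exact matches of 50 bases or more to another gene, and the genes that overlap Traf3, Map3k14 and Nfkb1 had at most 5, 4 and 39 reads in any library.

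Because Nfkb2 is a textbook target of NF-kB itself, the promoter windows of the genes were searched for sites of the kB type. RefSeq windows of 300 bases around the transcription start (GRCm38.p6) matched 6 of the 10 genes: Tnfrsf11a, Ltbr, Traf3, Traf6, Map3k14 and Nfkb2, the last with 3 start sites. The kB consensus, searched on both strands with overlapping matches counted by position, occurred in 4 of these 8 windows, namely all 3 of Nfkb2 and that of Traf3. It occurs in 4.51% of the 32851 promoter windows in the table. The looser pattern GGGNNNNNCC, which contains the consensus, occurred in all 8 windows but also in 50.8% of all windows, and the consensus was singled out after these matches were seen. The windows below, read on the gene's strand, show the most upstream and the middle Nfkb2 start site, then Traf3, whose level hardly differed between populations, and Tnfrsf11a, which was strongly medullary and has no match. Capitals mark matches to the kB consensus.
Nfkb2 first start site, chr19:46304487-46304786, plus strand: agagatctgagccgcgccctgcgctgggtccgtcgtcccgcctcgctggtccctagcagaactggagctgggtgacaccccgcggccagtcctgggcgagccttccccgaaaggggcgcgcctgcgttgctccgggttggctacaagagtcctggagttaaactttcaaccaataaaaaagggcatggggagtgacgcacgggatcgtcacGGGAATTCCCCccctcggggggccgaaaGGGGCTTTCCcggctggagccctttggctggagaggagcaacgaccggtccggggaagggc
Nfkb2 second start site, chr19:46305445-46305744, plus strand: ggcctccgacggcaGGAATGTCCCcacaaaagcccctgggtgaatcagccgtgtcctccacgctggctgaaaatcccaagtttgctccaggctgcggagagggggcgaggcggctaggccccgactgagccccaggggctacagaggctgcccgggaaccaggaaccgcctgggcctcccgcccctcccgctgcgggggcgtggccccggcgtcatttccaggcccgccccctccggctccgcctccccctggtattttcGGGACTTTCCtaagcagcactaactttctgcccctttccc
Traf3, chr12:111166120-111166419, plus strand: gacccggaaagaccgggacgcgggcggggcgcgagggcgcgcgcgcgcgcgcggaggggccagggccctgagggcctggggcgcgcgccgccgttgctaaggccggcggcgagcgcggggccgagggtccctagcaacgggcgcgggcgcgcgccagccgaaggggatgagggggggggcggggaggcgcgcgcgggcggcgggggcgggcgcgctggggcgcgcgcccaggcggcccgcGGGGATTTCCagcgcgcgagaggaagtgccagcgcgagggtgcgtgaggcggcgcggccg
Tnfrsf11a, chr1:105780473-105780772, plus strand: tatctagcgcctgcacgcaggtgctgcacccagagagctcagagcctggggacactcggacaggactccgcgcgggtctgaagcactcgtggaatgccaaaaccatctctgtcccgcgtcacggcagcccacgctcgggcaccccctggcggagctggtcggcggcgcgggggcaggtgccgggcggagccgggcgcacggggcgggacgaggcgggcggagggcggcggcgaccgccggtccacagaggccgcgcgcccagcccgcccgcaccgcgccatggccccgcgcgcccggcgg
The first Nfkb2 window holds matches at 3 positions, of which those beginning at bases 212 and 213 overlap, and the second holds 2. The match at bases 261 to 270 of the second window lies again at bases 26 to 35 of the third, which overlaps it. Traf3 holds 1 match, at bases 241 to 250 of a window that is 84.0% G and C. The windows of Ltbr, Traf6 and Map3k14 hold none. These are letters in a window and not measured binding. The control population ratios were 1.32 for Nfkb2 and −0.12 for Traf3, which have a match. They were 2.82 for Tnfrsf11a, 0.89 for Traf6, 0.34 for Map3k14 and −0.97 for Ltbr, which have none. Cd40, Tnfrsf11b, Nfkb1 and Relb had no window, and a relation of matches to the ratios was not tested.

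Compared per length, Nfkb2 was the most abundant of the 10 genes in mTEC, and Ltbr and Nfkb2 were in cTEC, on the length-adjusted TPM scale with the deposited gene lengths. In control mTEC the TPM levels descended from 458 for Nfkb2 and 228 for Relb through 118 for Cd40, 95.2 for Ltbr, 92.8 for Tnfrsf11b, 66.2 for Nfkb1, 59.1 for Tnfrsf11a and 50.9 for Traf3 to 42.3 for Map3k14 and 35.5 for Traf6. Ltbr and Tnfrsf11b are neighbours whose counting intervals overlap there. In control cTEC the order began with Ltbr at 187 and Nfkb2 at 184 TPM, and went on with Nfkb1 at 111 and Relb at 109. Traf3 followed at 55.3 and Map3k14 at 33.6 TPM. It ended with Cd40 at 24.6, Traf6 at 19.2, Tnfrsf11a at 8.38 and Tnfrsf11b at 7.11. Counting error does not separate Ltbr from Nfkb2, Nfkb1 from Relb or Tnfrsf11a from Tnfrsf11b in that order. The deposited length of Nfkb1, 12061 bases, far exceeds the mean of its coding transcripts in GENCODE (3159 bases). With mean coding transcript lengths Relb led in control mTEC at 534 TPM and Nfkb1 in control cTEC at 425, and Nfkb2 over Nfkb1 in cTEC became 0.435 in place of 1.65. Orders between these genes therefore rest on the length used, whereas ratios of 1 gene between libraries do not.

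Counted by a size rule, 5 of the 10 genes were called higher in mTEC than in cTEC of controls and 0 lower, against 19.0% and 8.53% of the 15747 genes tested. The rule asks for at least 50 reads over the pair, at least 2-fold and a counting interval that excludes 0. The genes called were Tnfrsf11a, Tnfrsf11b, Cd40, Nfkb2 and Relb. In knockouts the calls were the same 5 genes higher and 0 lower, against 19.8% and 8.96% of 15962. The knockout pair shares no library with the control pair. The 10 genes were chosen for their part in medullary maturation, with earlier results of these data known. Their share of higher calls beside that of all genes is therefore no independent evidence. The median log2 ratio of the 10 genes was 0.98 in controls and 0.92 in knockouts, while the medians over all genes tested were −0.06 and −0.08. Single genes sat at different places in that distribution. Only 3.89% of tested genes had a higher ratio than Tnfrsf11b in controls and 6.86% a higher one than Tnfrsf11a, but 18.3% exceeded Relb, and Traf3 lay near the middle with 54.0% above it.

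**Figure D2:**
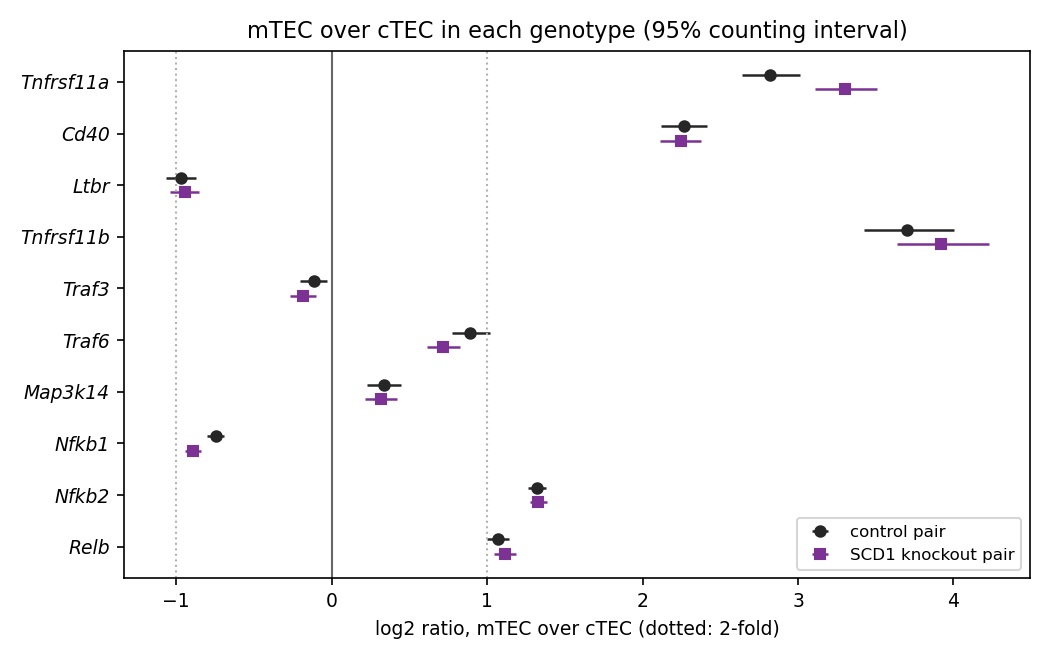
Log2 ratio of mTEC over cTEC for each gene, with 95% counting intervals; black circles are the control pair, purple squares the SCD1 knockout pair, and dotted lines mark 2-fold. Tnfrsf11a, Cd40, Tnfrsf11b, Nfkb2 and Relb lie beyond 1 in both pairs, Ltbr and Nfkb1 lie between −0.97 and −0.75, and Tnfrsf11a is the gene with the widest gap between the pairs (2.82 and 3.30).

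Markers of other cells also differed between the populations, in either direction. B cells and dendritic cells also express Cd40, Relb and Nfkb2. The 7 B cell markers summed to 45.8 and 45.1 CPM in mTEC against 5.10 and 6.27 in cTEC, with Fcmr at 0 in control cTEC, and all 5 markers with enough reads were called higher in mTEC in both genotypes. Cr2, also a marker of follicular dendritic cells, gave 349 of the 781 B cell marker reads in control mTEC. The 14 myeloid and dendritic cell markers summed to 374 and 413 CPM in mTEC against 115 and 139 in cTEC, none at 0, led by Lyz2. Thymocyte markers (14 genes, none at 0) were lower in mTEC, with sums of 240 and 295 against 346 and 439 CPM. The 8 endothelial markers summed to 39.7 and 50.3 against 19.9 and 29.9 CPM, none at 0. Of these reads, Vwf alone gave 404 of 676 and 443 of 883 in control and knockout mTEC, and 51 of 304 and 57 of 525 in cTEC. Only 2 of 4 endothelial markers tested were higher in mTEC of controls, and 2 of 5 in knockouts. The 7 fibroblast markers, led by Dcn, summed to 180 and 185 against 400 and 393 CPM, none at 0. Dcn alone gave 1210 of 3072 of these reads in control mTEC and 4535 of 6109 in control cTEC. The list was mixed, with 3 of 7 fibroblast markers higher in mTEC in each genotype. Whether these marker reads came from other cells or from the epithelium itself was not tested, nor was their part in the ratios above.

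Between genotypes, 0 of the 10 genes were called in mTEC, where 0.504% of 16466 genes were called higher and 0.431% lower. In cTEC again 0 were called, against 0.492% higher and 0.706% lower of 14445. Without replicates no test or p-value stands beside these counts. The absolute log2 ratios of the 10 genes had a median of 0.06 in mTEC and 0.08 in cTEC, against 0.11 and 0.13 over all genes tested, which include many with fewer reads. In mTEC the largest absolute ratio was that of Cd40, 1.09-fold higher in the knockout library (0.12, 0.04 to 0.20). The intervals of Traf3 (−0.09, −0.18 to −0.01) and Nfkb1 (−0.07, −0.13 to −0.02) also excluded 0, so that 3 of 10 did, beside 21.8% of the genes tested. Nfkb2 and Map3k14 were within 1% of equality in mTEC, at log2 ratios of −0.0036 (−0.05 to 0.04) and 0.0023 (−0.10 to 0.10). Both signs depend on the scaling. Relb stood at 0.02 (−0.03 to 0.08), Tnfrsf11a at 0.05 (−0.04 to 0.13) and Tnfrsf11b at −0.04 (−0.14 to 0.06). Ltbr stood at 0.11 (−0.00 to 0.21) and Traf6 at 0.09 (−0.01 to 0.19).

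In cTEC the intervals of 4 genes excluded 0, beside 30.8% of the genes tested. Tnfrsf11a had 268 control and 227 knockout reads, 1.35-fold lower in the knockout library (−0.44, −0.70 to −0.18), and 94.6% of tested genes had a higher ratio. Traf6 had 807 and 1113 reads, higher in the knockout library (0.27, 0.13 to 0.40), with 11.5% of tested genes above it. Ltbr was 1.06-fold higher (0.08, 0.00 to 0.16) and Nfkb1 1.05-fold higher (0.07, 0.03 to 0.12). Tnfrsf11b was at −0.25 but with 107 and 103 reads its interval ran from −0.66 to 0.15. Cd40 stood at 0.14 (−0.04 to 0.33), and Traf3, Map3k14, Nfkb2 and Relb lay between −0.02 and 0.02 with intervals that hold 0.

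Marker lists also differed between the libraries of the cTEC pair. The 9 mTEC markers used for the label check, none at 0, summed to 3569 CPM in control and 3226 in knockout cTEC, with 2 of 9 above 0 and a median log2 ratio of −0.19. Fezf2, a regulator of tissue antigens, was at −0.33 (−0.47 to −0.19) and Aire at −0.16 (−0.33 to 0.01). A list of 11 medullary genes was drawn up for RANK and CD40 signals, and the dependence of each gene on them was not tested. It shares 4 genes with those markers and had 5 of 9 tested above 0 and a median of 0.07, with Ccl21a at 0.27. That median became −0.16 with a minimum of 200 reads and with none. The 10 cTEC markers, none at 0, summed to 18120 and 22615 CPM in the same pair. In the mTEC pair the cTEC markers summed to 3037 CPM in control and 3665 in knockout. All 10 were above 0 in both pairs, with medians of 0.17 in mTEC and 0.32 in cTEC.

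Of the markers of other cells, those of 3 lists were mostly higher in the knockout library of the cTEC pair. Thymocyte markers were above 0 for 12 of 12 tested (median 0.36; sums 346 and 439 CPM), myeloid and dendritic cell markers for 8 of 9 (0.25; 115 and 139 CPM) and endothelial markers for 3 of 4 (0.57; 19.9 and 29.9 CPM). Fibroblast markers were above 0 in the cTEC pair for 4 of 6 (median 0.03, sums 400 and 393 CPM). B cell markers were for 1 of 2 (median −0.06, sums 5.10 and 6.27 CPM). In the mTEC pair thymocyte markers were above 0 for 11 of 12 (0.29) and endothelial markers for 5 of 5 (0.63). Myeloid and dendritic cell markers were above 0 there for 7 of 12 (0.13). Fibroblast markers were for 5 of 7 (0.07) and B cell markers for 2 of 5 (−0.10). The part of these shifts in the ratios of Tnfrsf11a, Traf6 and the other genes between genotypes was not tested.

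**Figure D3:**
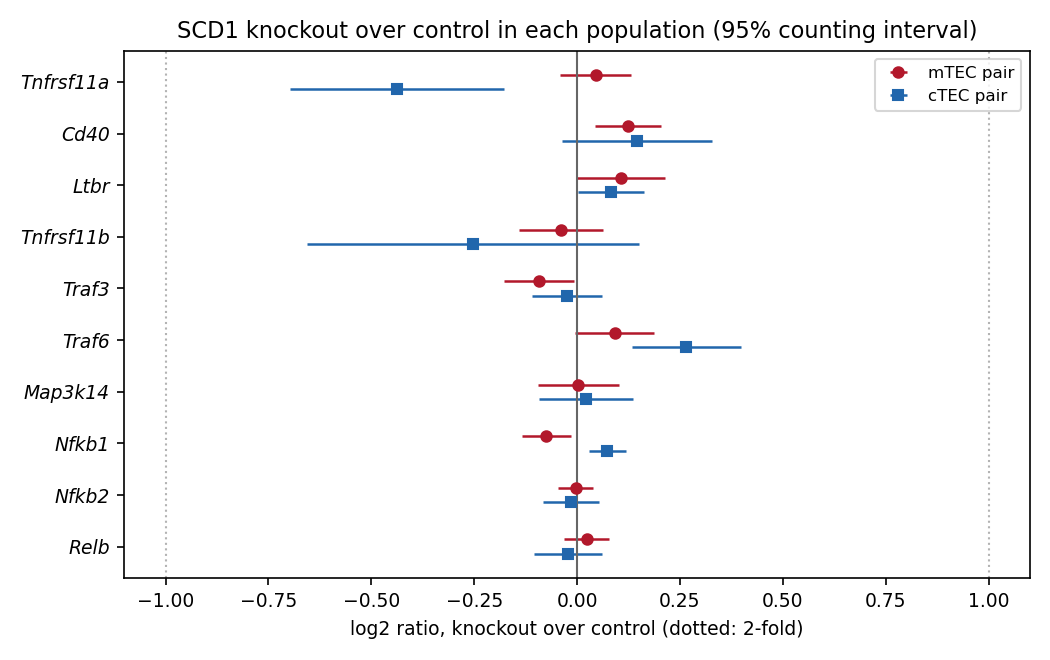
Log2 ratio of SCD1 knockout over control for each gene, with 95% counting intervals; red circles are the mTEC pair, blue squares the cTEC pair, and dotted lines mark 2-fold. All values lie between −0.44 and 0.27, well inside 2-fold, and Tnfrsf11a and Traf6 in cTEC lie farthest from 0 among those whose interval excludes it.

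The genotype ratios of mTEC and cTEC were then set against each other gene by gene. The population and genotype comparisons share libraries, each of which enters 2 of them. The difference (mTEC ratio minus cTEC ratio, log2) had a counting interval that excluded 0 for 3 of the 10 genes, beside 24.2% of 13953 genes. It was 0.48 for Tnfrsf11a (0.21 to 0.75), −0.17 for Traf6 (−0.34 to −0.01) and −0.15 for Nfkb1 (−0.22 to −0.07). These same numbers are the change of the mTEC over cTEC ratio with genotype, from 7.06-fold to 9.86-fold for Tnfrsf11a. For the other 7 genes the interval held 0, with the narrowest for Nfkb2 (0.01, −0.07 to 0.09) and the widest for Tnfrsf11b (0.21, −0.19 to 0.62). With 1 library per group, differences of this size between repeated libraries of the same group are unknown here.

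The surrounding pathway was read from 7 lists of other genes, 86 in all, which share Aire, Fezf2, Cd80 and Cldn4 with the mTEC markers. Of the 83 with at least 50 reads in the control pair, 33 were called higher in mTEC and 4 lower, beside 19.0% and 8.53% of all genes tested. In knockouts 32 and 4 of 82 were called, beside 19.8% and 8.96%. The same shares stand beside the counts of each list below. The median log2 ratio of the pathway genes was 0.69 in both genotypes. The medullary list, of genes known to be high in mTEC, gave 9 of the 33 higher calls and 8 of the 32. Among the ligand genes, Tnfsf11, the RANK ligand gene, had 46 and 60 reads in mTEC and 28 and 43 in cTEC, and Cd40lg had 2 to 5 reads in each library. Tnfsf10, which encodes TRAIL, had the most reads of the list, 983 and 1010 in mTEC and 464 and 431 in cTEC. Of 8 ligand genes tested in controls 4 were called higher in mTEC and 0 lower: Tnf (602 against 143 reads), Ltb (488 against 108), Lta (106 against 41) and Tnfsf13 (58 against 14). In knockouts there were 5 of 8.

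Among 19 other TNF receptor genes tested, 9 were called higher in mTEC of controls and 1 lower, and 7 and 1 in knockouts. Tnfrsf9, which encodes 4-1BB, stood at a log2 ratio of 2.98 in controls and 3.71 in knockouts. Relt stood at 2.93 and 3.30, and Tnfrsf13c, the BAFF receptor gene of B cells, at 3.32 and 3.17 with 94 against 8 reads in controls. Tnfrsf19 was the gene called lower, at −2.91 and −2.21. Adaptors, ubiquitin ligases and their regulators other than Traf3 and Traf6 had a median log2 ratio of 0.07 in controls and 0.03 in knockouts. In both genotypes 2 of 16 were called higher, Traf1 (1.89 and 1.65) and Tank (1.23 and 1.14), and 1 lower, Tab1 (−1.28 and −1.13), which encodes a subunit of the TAK1 kinase complex. The list of 8 genes for IkB kinases, their relatives and regulators, which includes Rbck1, Rnf31 and Sharpin of the linear ubiquitin ligase, had medians of 0.00 in controls and −0.05 in knockouts, and 1 call in each, Ikbke (1.37 and 1.32).

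Genes of the IkB family split. Nfkbia, at 1113 CPM in control mTEC and 746 in control cTEC, and Nfkbib, at 65.1 and 81.3, were not called. Nfkbid, an atypical nuclear IkB, and Nfkbie were called higher in mTEC (2.01 and 1.45 in controls, 2.21 and 1.41 in knockouts), and Nfkbiz, another nuclear IkB, was called lower (−1.17 and −1.03). Of the 13 genes known to be induced by NF-kB, 6 were called higher in mTEC and 1 lower in controls, and 7 and 1 in knockouts. Madcam1, an addressin, had 435 reads in control mTEC and 3 in control cTEC (log2 ratio 6.80, 5.47 to 9.31). Cxcl2 stood at 3.37 in both genotypes, Ccl20 at 3.07 and 3.25, and Cxcl13 at 2.70 and 2.92. Of the 11 genes in the medullary list, 9 were called higher in mTEC of controls and 8 of 10 tested in knockouts, with 0 lower in both. Aire stood at 5.07 and 5.23, Spib at 3.93 and 3.86 and Ivl, the involucrin gene of late keratinocyte-like cells, at 2.69 and 3.35. These medullary genes were known to be high in mTEC when they were listed, so their direction is no independent evidence.

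Between genotypes, 1 of the 86 pathway genes was called. Ccl19, a CCR7 ligand gene of the same medullary list, had 264 control and 10 knockout reads in mTEC (−4.70, −5.84 to −3.86). It has near-identical copies in the genome, the reads of which cannot be assigned with certainty, and its other row on an unplaced scaffold was not used. In cTEC 0 were called. Over all genes tested, 0.504% were called higher and 0.431% lower in mTEC, and 0.492% and 0.706% in cTEC. The pathway medians between genotypes were 0.00 in mTEC and 0.01 in cTEC, and the medians over all genes tested 0.01 in each.

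**Figure D4:**
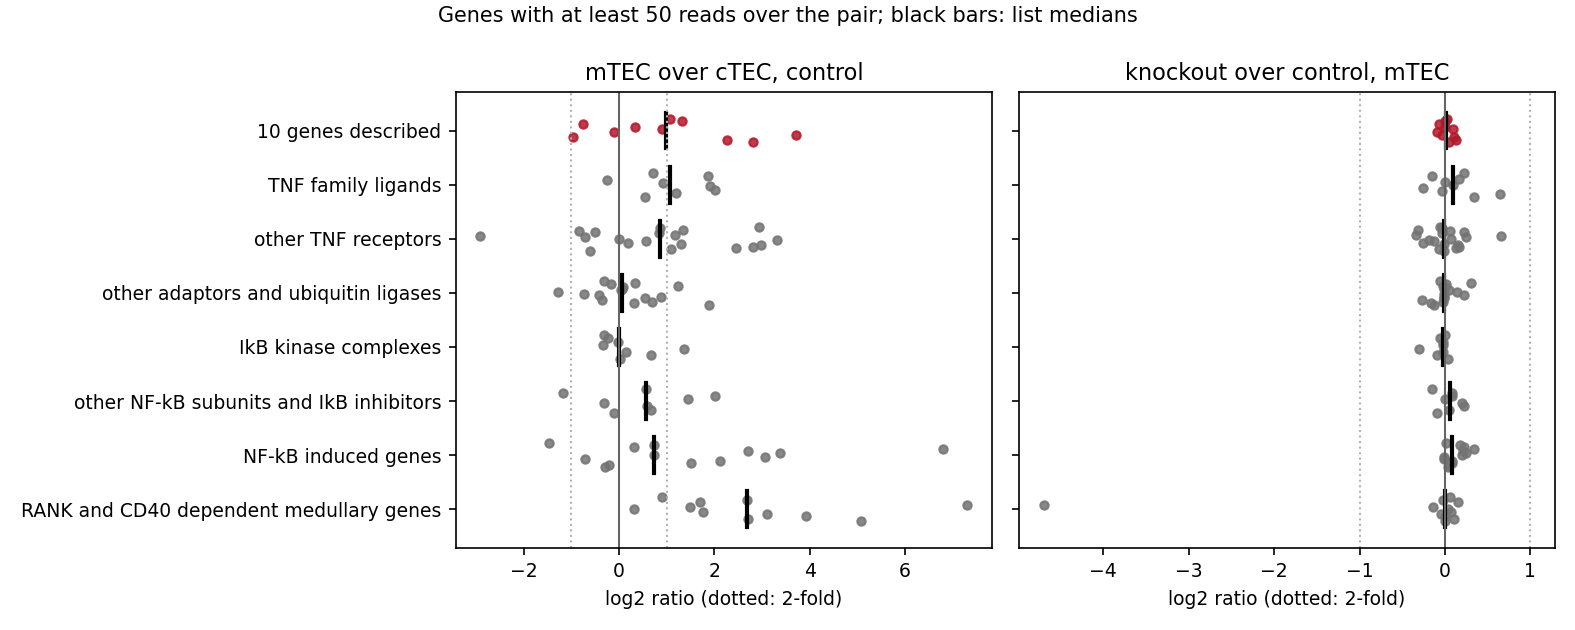
Log2 ratios of the 10 genes (red) and of the 7 pathway lists (grey) for mTEC over cTEC in controls (left) and for knockout over control in mTEC (right), 1 point per gene with at least 50 reads over the pair, black bars for list medians and dotted lines for 2-fold. Receptors, ligands and medullary genes spread mostly to the right of 0 in the population contrast. In the genotype contrast only Ccl19, at −4.70, lies beyond 2-fold. The list marked IkB kinase complexes includes the linear ubiquitin ligase genes Rbck1, Rnf31 and Sharpin. For the list marked RANK and CD40 dependent medullary genes, the dependence of each gene was not tested.

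Genes with the most similar pattern were sought for 3 of the genes. The measure was the smallest Euclidean distance between log2 levels centred on each gene's mean over the 4 libraries. The search covered 8625 coding genes with a named symbol, no predicted model and at least 200 reads in every library. Medullary genes with fewer cTEC reads, such as Relt with 178 in knockout cTEC, were not compared. Closest to Tnfrsf11a among the genes compared were Alox15 (distance 0.15), Fezf2 (0.16), Il1rn (0.16), Wfdc18 (0.17) and Rgs5 (0.18). In cTEC, where Tnfrsf11a had 268 and 227 reads, Fezf2 had 907 and 829 and Rgs5 643 and 645, although the knockout library was the larger. Closest to Nfkb2 were Acta2 (0.04), Shmt2 (0.05), Rnaseh2b (0.05), Filip1l (0.06) and Gem (0.06). For Traf3, whose profile is nearly flat, they were Baz1b (0.0036), Ddb2 (0.01), Pip4k2c (0.01), Wars (0.01) and Ccdc120 (0.02). With 4 libraries such distances describe these samples only.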

How the data were processed

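RNA of 4 libraries was measured by bulk sequencing, 1 per group. The values deposited by the authors are raw counts of reads for each gene. The submitters' processing notes list CASAVA, featureCounts 1.5.0-p3, HISAT2 2.0.5 and the build mm10. Settings for strand and multi-mapping and the annotation release: not given in the sources used here. Gene length, deposited in bases per the file headers, was used for TPM only.

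Counts were scaled by TMM (edgeR 4.0.16, R 4.3.3) over all 54532 genes. Further steps used Python 3.11.15, pandas 2.3.3 and scipy 1.17.1. Log2 ratios carry a prior of 0.5 reads and exact conditional binomial (Clopper-Pearson) 95% intervals, levels exact Poisson intervals, and differences of ratios Wald intervals. Since PCR copies are not separate molecules, intervals and the floor (3 counts, 0.171 to 0.196 CPM) measure counting error alone. The intervals were tried on simulated Poisson counts, the error they assume. Those counts held no variation between repeated libraries, so the trial checks the calculation only. Shared sequence was found with blastn 2.17.0 in GENCODE M21 transcripts, and promoters came from RefSeq (GRCm38.p6).

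The genes and lists were chosen with earlier results of these data known, and the gene pairs, the counts of intervals that exclude 0 and the motif search after the values were seen. The text names all 10 genes and up to 4 called genes of each pathway list with the largest ratios. It also names the 5 genes nearest in pattern to Tnfrsf11a, Nfkb2 and Traf3 among those with at least 200 reads in every library. Tnfsf11, Cd40lg, Rela, Psd and the markers were named outside this rule. Alternatives were 3 other scalings, minimums of 200 and 0 reads, a prior of 2, a fold of 1.5 and coding transcript lengths for TPM.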

Additional observations from a re-analysis of the deposited data

Results flagged for a closer look

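Of the 10 genes and the 86 pathway genes, 8 had knockout over control ratios with counting intervals on opposite sides of 0 in mTEC and cTEC. The share of all tested genes with such intervals was not counted. Intervals excluded 0 for 21.8% of all genes tested in mTEC and 30.8% in cTEC, with many abundant genes among them. The difference between populations was not tested against replicates, and none of the 16 values reaches 2-fold. Nfkb1, among the 10 genes described, was at −0.075 in mTEC and 0.074 in cTEC on the log2 scale. From the pathway lists, the inhibitor gene Nfkbia was at 0.22 and −0.13 (18962 and 22730 reads in mTEC, 11400 and 11979 in cTEC), Gadd45b at 0.18 and −0.15, Nfkbiz at 0.077 and −0.063 and Icam1 at 0.037 and −0.035. Of the medullary genes, Fezf2 was at 0.10 and −0.33, Cldn4 at 0.16 and −0.19, and the chromosome 4 row of Ccl21a, a gene with near-identical copies, at −0.14 and 0.27.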

How the results depend on the processing

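No paired analysis was possible because each group holds 1 library, and for the same reason no library could be left out. Under 3 other scalings, both read minimums and the larger prior, the counts of called members stayed at 5 higher and 0 lower in each population contrast and at 0 in each genotype contrast. With a fold of 1.5, 6 members were called higher in each population contrast, and 2 members (Ltbr and Nfkb1) were called lower in mTEC in controls and 2 in knockouts. No called member changed sign. The largest shift of a member's log2 ratio was 0.09, with total reads as scale. The genotype ratios that changed sign with scaling were those of Map3k14 (0.0023 to −0.004 with total reads and −0.0102 with upper-quartile scaling) and Nfkb2 (−0.0036 to 0.0022 with DESeq2 size factors) in mTEC, and the differences between populations of Ltbr (0.02 to −0.0028) and Nfkb2 (0.01 to −0.02) with upper-quartile scaling. With mean coding transcript lengths, TPM in control mTEC became 70.4 for Tnfrsf11a, 284 for Cd40, 106 for Ltbr, 69.3 for Traf3, 45.3 for Traf6, 65.3 for Map3k14, 252 for Nfkb1 and 534 for Relb.

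Among list medians, the medullary list became 2.24 (controls) and 2.05 (knockouts) for mTEC over cTEC with 200 reads, and 2.80 in knockouts without a minimum. Its knockout over control median in cTEC became −0.16 under either minimum, from 0.07, because other genes entered or left. The ligand median in cTEC became 0.10 without a minimum, from −0.30. The median of other subunits and inhibitors in knockouts became 0.54 with total reads, from 0.45. Over all genes, the control population contrast gave 1416 higher calls with 200 reads and 5785 without a minimum, in place of 2990, and the knockout contrast 1508 and 6131 in place of 3162. A fold of 1.5 gave 3011 and 3155 lower calls in place of 1343 and 1430. Genotype calls of 83 higher and 71 lower in mTEC became 10 and 9 with 200 reads, 519 and 473 without a minimum and 351 and 243 at a fold of 1.5. In cTEC 71 and 102 became 7 and 13, 496 and 686, and 310 and 365.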
